A study of Mus musculus with 23 samples.

Results

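The 17 injured uterine horns of this mouse series were divided by how much Acta2 messenger RNA their endometrial sample held. Acta2 encodes smooth muscle alpha-actin. The members were chosen by that measured value. A horn was called muscle-rich where Acta2 in CPM (counts per 1000000 counts of the horn) had a log2 of at least 7, and muscle-poor below that value. Of the 23 horns in the series, 6 were muscle-rich and 11 muscle-poor. The other 6 horns, labelled SHAM, took no part in the division and serve as a reference.

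The tissue came from female C57BL/6 mice in which the endometrium of the PBS, HG and HG+ORG horns had been damaged with ethanol. Injections into the horns followed 4 days later, with saline (PBS, 5 horns), a hydrogel alone (HG, 6 horns), or the hydrogel together with human endometrial organoids, which are cultured epithelial structures (HG+ORG, 6 horns). Tissue was taken 2 weeks after the injection. The labels leave out what the SHAM horns received, whether they were damaged, and which horns shared a mouse. The mice were immunocompetent hosts, and reads of human cells that map to the mouse genome cannot be told apart from mouse reads in these counts.

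The uterine wall has an inner endometrium, made of epithelium, glands and stroma, and an outer myometrium of smooth muscle, with a vessel-rich layer between the muscle sheets. Smooth muscle contracts through actin, myosin and the proteins that bind them, and serum response factor with its partner myocardin switches many of these genes on through a short promoter element called the CArG box. Acta2 is also made by pericytes, by the muscle of vessel walls and by myofibroblasts, the contractile fibroblasts of healing wounds, so the gene alone does not name a cell type. The endometrium had been pressed out of each horn by hand with forceps to part it from the myometrium.

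Promoters of Acta2 and of 2 of the 8 genes most like it in level, Myl9 and Jph2, are shown because they carry CArG-like elements. Each run is the 250 bases before a gene's start in RefSeq, build GRCm38.p6, 5′ to 3′ along the gene's strand. Capitals mark each stretch of CC, 6 bases of which at most 1 is G or C, and GG. Acta2 lies on the minus strand at chr19:34255374-34255623, Myl9 on the plus strand at chr2:156775214-156775463, and Jph2 on the minus strand at chr2:163397974-163398223.
Acta2: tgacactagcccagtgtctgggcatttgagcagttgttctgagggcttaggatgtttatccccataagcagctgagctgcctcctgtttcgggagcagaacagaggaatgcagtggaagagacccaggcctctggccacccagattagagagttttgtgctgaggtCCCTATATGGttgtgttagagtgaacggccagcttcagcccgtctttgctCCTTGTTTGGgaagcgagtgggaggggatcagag
Myl9: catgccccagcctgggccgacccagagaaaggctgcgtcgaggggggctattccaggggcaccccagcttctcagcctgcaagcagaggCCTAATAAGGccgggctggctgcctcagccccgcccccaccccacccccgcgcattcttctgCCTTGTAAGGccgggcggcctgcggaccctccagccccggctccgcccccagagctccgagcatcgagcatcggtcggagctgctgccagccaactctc
Jph2: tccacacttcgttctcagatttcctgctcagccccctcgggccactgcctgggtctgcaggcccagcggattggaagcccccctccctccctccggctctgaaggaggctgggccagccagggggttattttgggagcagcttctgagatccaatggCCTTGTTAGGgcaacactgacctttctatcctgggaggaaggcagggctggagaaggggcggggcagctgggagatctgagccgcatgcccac
The Acta2 promoter held such elements 84 and 34 bases before the start, Myl9 161 and 99 bases before it, and Jph2 93 bases before it. The Myl9 element at 161 bases had only A and T in its middle 6 bases, the strict form of the CArG box. The letters read alike in form on both strands. Of 32851 promoters in the same table, 8.59% held the looser form and 1.47% the strict form. RefSeq entries existed for 11 of the 15 smooth muscle genes searched, and 3 of these 11 held the looser form in this window. The 15 genes were chosen after their values had been seen, and a match describes letters only.

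Acta2 ranged over more than 3 orders of magnitude among injured horns. Among PBS horns it was 224 CPM in replicate 7 and 543 CPM in replicate 10, both muscle-rich, against 0.351, 6.61 and 33.3 CPM in replicates 8, 9 and 11. Among HG horns it was 493, 1249 and 572 CPM in replicates 13, 16 and 17, against 21.8, 97.5 and 62.8 CPM in replicates 12, 14 and 15. Of the HG+ORG horns, replicate 18 alone was muscle-rich, at 162 CPM, and replicates 19 to 23 held 10.4, 92.0, 27.4, 2.77 and 4.15 CPM. The SHAM horns held 9.13, 16.8, 26.1, 25.2, 21.1 and 17.0 CPM in replicates 1 to 6. SHAM horns therefore all lay within the muscle-poor range, and all 6 muscle-rich horns lay above every SHAM horn. The horns nearest the threshold were HG+ORG replicate 18 (162 CPM) and PBS replicate 7 (224 CPM) inside it, and HG replicate 14 (97.5 CPM) and HG+ORG replicate 20 (92.0 CPM) outside it.

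**Figure D1:**
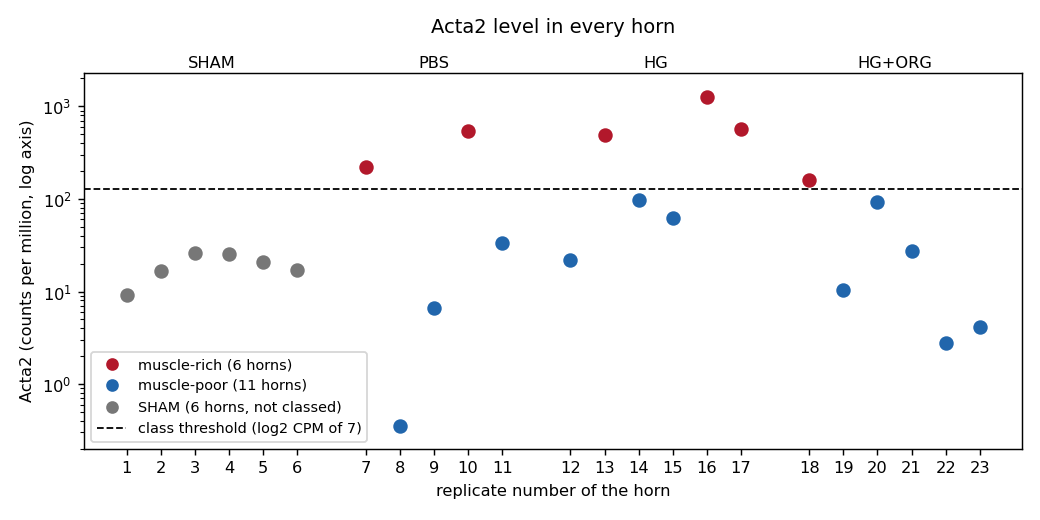
Acta2 in each of the 23 horns, in CPM on a log axis, by treatment and replicate number; each point is 1 horn and the dashed line is the threshold, a log2 CPM of 7. The 6 muscle-rich horns lie between 162 and 1249, and the 6 SHAM horns between 9.13 and 26.1.

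Muscle-rich horns made up 2 of 5 PBS, 3 of 6 HG and 1 of 6 HG+ORG horns, so class and treatment overlap in part. Total counts were 8259400 to 14903000 in muscle-rich horns, 11332000 to 14341000 in muscle-poor horns and 7920900 to 14688000 in SHAM horns. Mitochondrially encoded genes took 3.37 to 9.45% of counts in muscle-rich and 1.50 to 11.4% in muscle-poor horns, and the 10 most abundant genes 5.87 to 15.0% and 3.94 to 15.4%. HG+ORG replicate 18 stood apart from the other horns. Esr1, the estrogen receptor of the uterus, stood at 3.83 log2 CPM there and at 8.07 or more in every other horn. Its macrophage score, the mean log2 CPM of 16 marker genes, was 9.09, where no other horn passed 5.78, so each result below was read with and without it.

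Because the classes were cut from Acta2 in these same libraries, the contrast of muscle-rich with muscle-poor horns is given as a description with no test. Levels below are log2 CPM after scaling by trimmed mean of M-values (TMM), on which a gene without counts in a horn reads -2.66, and differences are muscle-rich minus muscle-poor means. Differences of genes near that floor understate the fold. In bulk tissue, fewer cells of a type and less RNA per cell cannot be told apart. Of 17312 genes compared, 53 (0.306%) were higher in every muscle-rich horn than in every muscle-poor horn, Acta2 included, and 43 (0.248%) were lower. With plain CPM in place of TMM the split was 56 higher and 14 lower, and with DESeq2 size factors 55 and 39. A difference of at least 1 was seen for 1882 higher (10.9%) and 928 lower genes (5.36%), and without HG+ORG replicate 18 for 1676 (9.69%) and 625 (3.61%). Without that horn the counts of genes that did not overlap were 91 (0.526%) and 43 (0.249%), of which 50 and 34 were among those of all 17 horns. Without HG replicate 14 they were 357 (2.07%) and 59 (0.342%), and without PBS replicate 7 they were 185 (1.05%) and 254 (1.44%). Without HG replicate 12 they were 89 (0.517%) and 89 (0.517%), and without HG+ORG replicate 21 they were 94 (0.543%) and 76 (0.439%). The median difference of all genes was -0.02, while the 52 higher genes other than Acta2 had a median of 2.40 and the 43 lower genes one of -0.93. Of all genes 48.2% had a higher mean in muscle-rich horns, the share beside which the counts of list members below stand.

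Contractile genes of smooth muscle were higher throughout. All 20 measured members of the filament and contraction list other than Acta2 had a higher mean in muscle-rich horns, with a median difference of 3.27, and 5 of them had ranges that did not overlap (Myl9, Ppp1r12b, Smtn, Tagln and Tpm2). Tagln, the actin-binding protein SM22, had a lowest, median and highest level of 5.10, 6.16 and 7.16 in muscle-rich horns and of -0.67, 1.85 and 3.90 in muscle-poor horns. No muscle-poor or SHAM horn, the latter at 0.49 to 4.02, reached the lowest muscle-rich one, and the mean difference was 4.47. Myl9, the regulatory light chain of smooth muscle myosin, ran 5.62, 7.60 and 8.52 against -0.52, 3.97 and 5.45. The gap was narrow at the edge, where HG+ORG replicate 18 at 5.62 stood just above HG replicate 14 at 5.45. Tpm2, a tropomyosin that lies along the thin filament, ran 6.00, 7.93 and 8.84 against -0.39, 4.00 and 5.50. Its SHAM horns stood at 3.09 to 4.75, inside the muscle-poor range. Smtn, a structural protein of the contractile apparatus, and Ppp1r12b, a targeting subunit of myosin phosphatase, differed less, by 1.82 and 1.46.

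The genes of the fully contractile state did not all follow Acta2 in HG+ORG replicate 18. Cnn1 (calponin, an actin-binding brake on contraction) was at 4.74, 7.19, 6.98, 7.99 and 6.93 in the other 5 muscle-rich horns, PBS replicates 7 and 10 and HG replicates 13, 16 and 17, and at 1.81 in HG+ORG replicate 18. That value lies inside the muscle-poor range of -1.23 to 4.21. Myh11, the smooth muscle myosin heavy chain, was at 6.40, 8.06, 6.78, 9.39 and 7.84 in the same 5 horns and at 3.69 in HG+ORG replicate 18, where muscle-poor horns reached 5.88. Pcp4, a calmodulin-binding protein, was at 3.31 to 6.61 in the 5 horns and at 0.04 in the sixth. Myocd, which encodes myocardin, was at 0.30 to 2.65 in the 5 and at -0.61 in HG+ORG replicate 18. Without that horn 12 of the 20 members had ranges that did not overlap, Cnn1, Myh11, Pcp4 and Myocd among them. It was above every muscle-poor horn in 11 of the 21 members, Acta2 included, against 13 in PBS replicate 7 and 18 to 20 in the other 4 muscle-rich horns. HG+ORG replicate 18 is thus muscle-rich by Acta2 but not by Cnn1, Myh11, Pcp4 or Myocd.

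**Figure D2:**
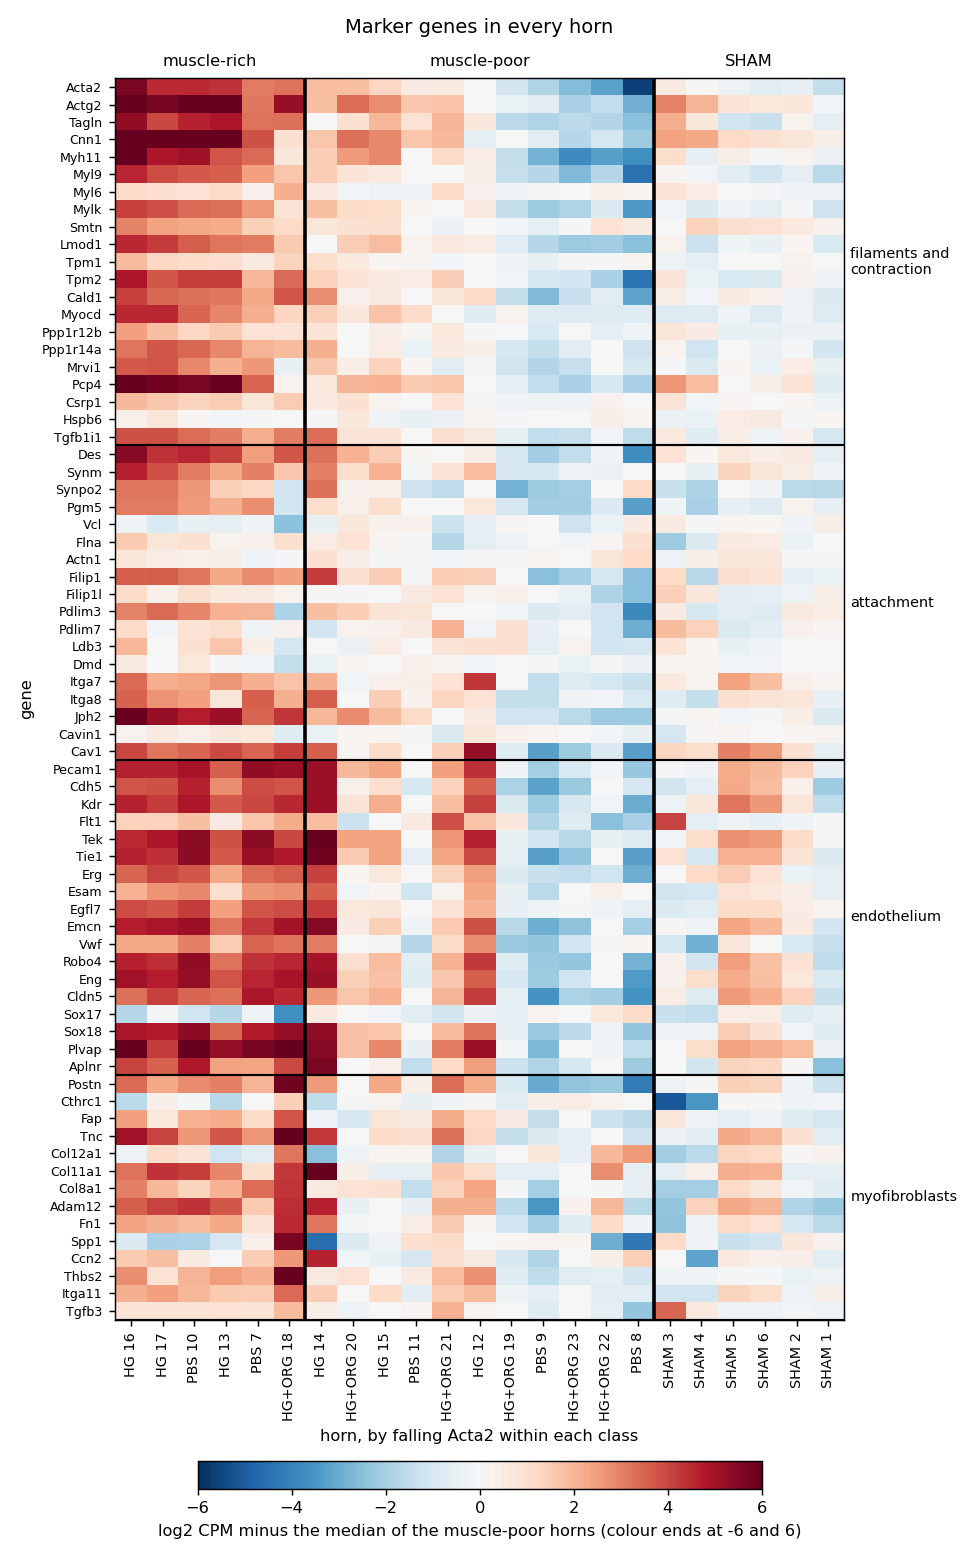
Levels of measured smooth muscle filament, smooth muscle attachment, endothelial and myofibroblast genes (rows) in each horn (columns, by falling Acta2 within class), as log2 CPM minus the median of the muscle-poor horns. HG+ORG replicate 18 is pale for Cnn1 (1.81), Myh11 (3.69) and Pcp4 (0.04) and dark for Postn (8.52) and Tnc (8.27), and HG replicate 14 is dark throughout the endothelial rows. Values in brackets are log2 CPM before the median is taken off.

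Attachment and membrane genes of muscle followed in part. Jph2, a junctophilin that ties the cell surface to the calcium store, ran 2.99, 4.46 and 5.40 in muscle-rich horns against -2.66, -0.50 and 2.34 in muscle-poor ones. Its ranges did not overlap, and at 4.78 its difference was the largest after Acta2 among genes of established symbol with that property and a mean of at least 1 CPM. In all, 16 of 19 genes of the cytoskeleton and attachment list had a higher mean, with a median of 2.10 that was 2.68 within PBS and 0.78 within HG. Des, the muscle intermediate filament desmin, differed by 4.22, and its muscle-poor maximum of 6.53 in HG replicate 14 passed the muscle-rich minimum of 5.72. The focal adhesion genes Vcl (-0.61) and Actn1 (-0.02), which most cells express, had means that were not higher. Of receptors, channels and pumps 17 of 21 had a higher mean, with a median of 1.40 that was 1.66 within PBS and 0.23 within HG, where 13 of 21 were higher. The muscle-poor HG replicate 14 had the highest score of this list among all horns, 3.92, and passed the muscle-rich median in 16 of the 21 genes. Kcnmb1, the beta subunit of the large-conductance potassium channel, ran 0.62, 1.71 and 3.44 against -2.66, -1.33 and -0.18 and was the only gene of this list without overlap. Oxtr, the oxytocin receptor, had levels of 0.50 and 4.24 in the 2 muscle-rich PBS horns, of 5.59, 5.90 and 2.92 in the 3 muscle-rich HG horns, and of -0.61 in HG+ORG replicate 18. HG replicate 12, a muscle-poor horn, had 3.60 of Oxtr, and SHAM horns ran from -1.14 to 4.67, so Oxtr did not keep to the classes.

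The transcription factors that drive smooth muscle genes had a median difference of 0.26 over 14 measured genes, of which 10 had a higher mean. Myocd was counted in the filament list and not in this one. Scores of this list were 4.24 to 4.54 in muscle-rich and 2.65 to 4.84 in muscle-poor horns. All 6 muscle-rich horns lay above the highest SHAM score of 3.73. Srf, which encodes serum response factor, had means of 5.83 ± 0.38 (SD, n = 6) and 5.94 ± 0.48 (n = 11). Mef2c, an activator of muscle and vessel genes, and Heyl, a Notch target of vessel walls, differed by 2.62 and 3.17, each with overlapping ranges.

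The genes whose order over the 17 injured horns was most like that of Acta2 were Myl9 (Spearman's rho 0.985), Tpm2 (0.983), Actg2 (0.983), Jph2 (0.978), Hspb7 (0.973), Kcnmb1 (0.973), Des (0.971) and Nexn (0.961). Actg2 encodes the gamma-actin of visceral muscle and is so alike in sequence to Acta2 that reads may be shared between them. Hspb7 is a small heat shock protein of muscle, and Nexn encodes nexilin, an actin-binding protein. These points share libraries and scaling, and 5 of the 8 genes stayed among the first 8 without HG+ORG replicate 18, as did 5 without HG replicate 14. Over the 6 SHAM horns, which the division did not use and whose Acta2 spread is small, rho with Acta2 was 1 for Actg2, 0.943 for Myl9 and Hspb7, 0.657 for Des, 0.486 for Kcnmb1 and Nexn, and 0.257 for Tpm2 and Jph2. The median over all genes in SHAM was -0.03.

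Vessel genes were higher in muscle-rich horns, but not only there. Of 18 endothelial genes 17 had a higher mean, with a median difference of 3.64, and none had ranges without overlap. Pecam1, the endothelial adhesion molecule CD31, ran 5.47, 6.67 and 7.22 in muscle-rich horns and -0.39, 1.88 and 6.99 in muscle-poor horns. The muscle-poor horns HG replicate 14 (6.99) and HG replicate 12 (6.27) lay within the muscle-rich range, and the next, HG+ORG replicate 21, at 4.34, lay below it. HG replicate 14 passed the muscle-rich median in 16 of the 18 genes. Within PBS horns the median difference of the list was 6.11, while within HG horns it was 0.38. Sox17, which uterine epithelium also expresses, was the member with the lower mean, by -1.41. Of the 18 genes, 16 were higher in every muscle-rich horn than in every SHAM horn, a property of 5.16% of all genes.

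Pericyte and vessel wall genes had a higher mean in 13 of 13, with a median of 3.40, of 4.74 within PBS and of 0.44 within HG, and scores of 2.35 to 4.03 against -1.31 to 3.89. Rgs5, a pericyte regulator of G protein signalling, was at 8.54 in HG replicate 14, above the muscle-rich maximum of 7.36. Lymphatic genes kept closer to the classes, with 7 of 7 higher, a median of 3.36 and values of 4.19 within PBS and 2.05 within HG. Flt4, the receptor VEGFR3 of lymphatic vessels, ran 3.14, 4.24 and 4.79 against -2.66, 0.51 and 3.06 with no overlap. HG replicate 14 stood above the muscle-rich median in 0 of the 7 lymphatic genes.

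Matrix genes formed the other large group. Of 13 elastic fibre genes 11 had a higher mean, with a median of 2.80 that was 3.70 within PBS and 1.29 within HG. Eln, which encodes elastin, ran 5.42, 6.20 and 7.30 in muscle-rich and -2.15, 2.31 and 4.98 in muscle-poor horns, and Fbln2, a fibulin of elastic fibres and vessel walls, ran 5.58, 6.56 and 8.29 against -2.15, 2.41 and 5.29. Their mean differences were 4.19 and 4.38. SHAM horns lay below the muscle-rich minimum of both, at 1.18 to 3.25 for Eln and 0.74 to 3.85 for Fbln2. Of 17 collagen and fibre-building genes 16 had a higher mean, with a median of 3.93 that was 4.48 within PBS and 2.22 within HG. Lox, the enzyme that cross-links collagen and elastin, ran 4.78, 6.22 and 7.31 against -2.66, 1.98 and 4.12 with no overlap and a difference of 4.17. Col1a1, the main chain of fibrillar collagen, did overlap, at 6.78, 9.98 and 11.86 against 0.88, 5.97 and 9.25. HG+ORG replicate 18 was the highest muscle-rich horn in 13 of these 17 genes.

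Fibroblast genes followed the matrix. Adventitial and deep fibroblast genes had a higher mean in 13 of 14, with a median of 2.47 that was 4.24 within PBS and 0.74 within HG, where 8 of 14 were higher. The scores of the muscle-poor HG replicates 12 (6.63) and 14 (6.24) lay inside the muscle-rich range of 5.96 to 6.70. Dcn, the proteoglycan decorin that coats collagen fibrils, ran 8.81, 9.65 and 10.25 against 1.12, 5.76 and 8.71, with the muscle-poor maximum in HG+ORG replicate 21 and a difference of 3.68. Outside the lists, Aspn, Ggt5 and Meox1 were named because their class ranges did not overlap. Aspn, a small proteoglycan related to Dcn, differed by 4.13, Ggt5, a gamma-glutamyl transferase, by 3.90, and Meox1, a homeobox factor of mesoderm, by 3.78. The classes nearly touched for Aspn, with a lowest muscle-rich level of 3.154 and a highest muscle-poor level of 3.147. Endometrial stroma genes were higher in 11 of 16, with a median of 2.07 that was 3.61 within PBS and 0.39 within HG. Hoxa10, a patterning factor of the uterus, was highest of all injured horns in the muscle-poor HG replicate 14 at 7.99, and was at 1.76 in HG+ORG replicate 18 against 5.08 to 7.20 in the other muscle-rich horns. Activated myofibroblast genes had a higher mean in 13 of 14, with a median of 2.12, of 2.43 within PBS and of 0.86 within HG. The median was 1.77 without HG+ORG replicate 18, which was the highest muscle-rich horn in 13 of the 14. Postn, the matrix protein periostin, was at 8.52 there and at 4.75 to 6.13 in the other muscle-rich horns, and Tnc, tenascin C, at 8.27 and 2.36 to 4.80. In the insulin-like growth factor axis 9 of 10 genes had a higher mean, with a median of 1.82 (2.59 within PBS, 0.66 within HG), and Igf1 itself differed by 3.22 with overlapping ranges.

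**Figure D3:**
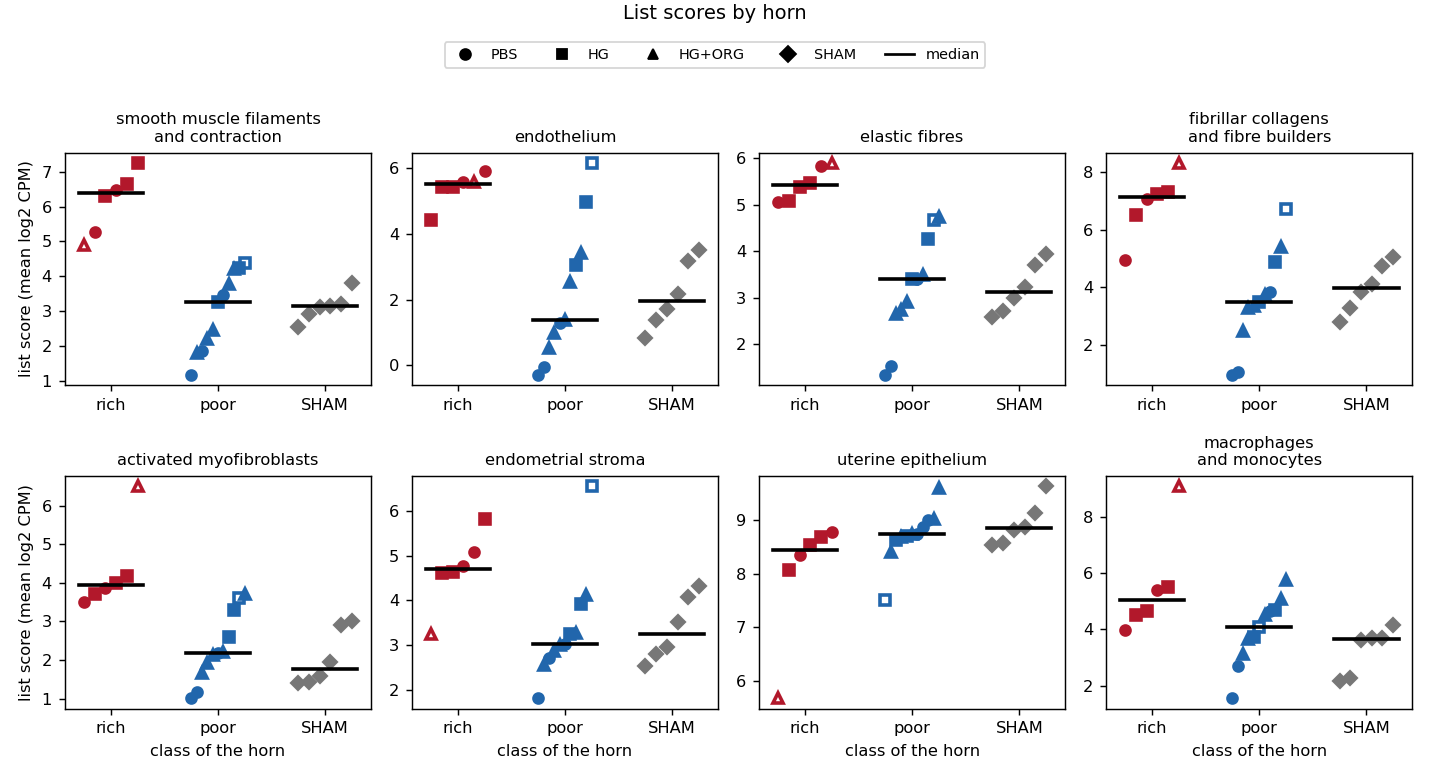
List scores (mean log2 CPM of a list's genes) of every horn in 8 lists, with muscle-rich horns in red, muscle-poor in blue and SHAM in grey, symbols for treatment and lines at class medians; open symbols are HG+ORG replicate 18 (red) and HG replicate 14 (blue). The smooth muscle scores are 4.88 to 7.25 in muscle-rich and 1.16 to 4.39 in muscle-poor horns, while the endothelial score of HG replicate 14 (6.16) is above every muscle-rich horn.

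Some markers of other cell types also differed between the classes, though not all of them did so within HG. Their part in the results was not tested. Mesothelial genes, from the outer lining of the horn, had a higher mean in 8 of 8, with a median of 1.47 and scores of 0.66 to 4.35 against -1.15 to 2.73. Msln, mesothelin, was at 0.36 to 4.62 in muscle-rich and -2.12 to 3.58 in muscle-poor horns. Fat cell genes had a median of 1.48, but 3.22 within PBS and -1.28 within HG, with scores of -0.25 to 6.43 against -0.99 to 9.94. Adipoq, the fat cell hormone adiponectin, was at the floor of -2.66 in PBS replicate 10 and HG replicate 17 of the muscle-rich horns and at 10.17 in the muscle-poor HG replicate 12. Skeletal muscle genes had a median of 1.52 over 4 measured genes, led by Acta1 (3.55), another actin that may share reads with Acta2. Nerve and Schwann cell genes had a median of -0.13, with 4 measured, and the Schwann cell markers Sox10 and S100b were not among them. Red cell genes, a sign of blood in the sample, had a higher mean in 5 of 5, with a median of 1.69 (2.77 within PBS, 0.07 within HG) and scores of 3.47 to 6.49 against 0.27 to 6.39. Mitochondrially encoded genes were higher in 13 of 13, with a median of 0.66, and immediate early genes, which respond to handling and stress, in 13 of 14, with a median of 1.14 that was -0.10 within HG.

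Macrophage, neutrophil and lymphocyte medians were smaller without HG+ORG replicate 18. Macrophage and monocyte genes had a higher mean in 15 of 16, with a median of 1.56, of 0.78 without that horn, of 1.86 within PBS and of 0.69 within HG. Lyz2, lysozyme of phagocytes, was at 13.90 there and at 6.74 to 9.10 in the other muscle-rich horns, against 4.93 to 9.73 in muscle-poor horns. Neutrophil genes had a median of 1.90, of 0.48 without it, of 1.98 within PBS and of 0.04 within HG, and S100a8, a calcium-binding protein of neutrophils, was at 10.48 there and at 0.57 to 4.23 in the other 5. T and NK cell genes had a median of 0.82, which was 0.58 without that horn, 1.48 within PBS and -0.50 within HG. B and plasma cell genes had one of 1.63, which was 1.01 without it, 2.75 within PBS and 0.46 within HG. Mast cell genes had a median of 1.03 over 7 genes that split 4 higher and 3 lower.

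Epithelial genes were lower on average, by little outside HG+ORG replicate 18. All 18 had a lower mean, with a median of -0.71 that was -0.23 without that horn, -0.25 within PBS and 0.05 within HG. Epcam, the epithelial adhesion molecule, was at 7.13 in HG+ORG replicate 18, at 9.51 to 10.32 in the other muscle-rich horns and at 9.11 to 11.05 in muscle-poor horns. Ehf, an epithelial transcription factor, was the single member without overlap, at 5.62, 6.90 and 7.05 against 7.20, 7.45 and 8.19. Gland genes had a median of -0.69, which was -0.42 without HG+ORG replicate 18, -0.04 within PBS and -0.66 within HG. Estrogen-induced secretory genes had one of -0.58, which was -0.18 without that horn and -0.22 within PBS, and the sign turned to 0.54 within HG, where 8 of 12 had the higher mean. Cxcl15, a chemokine of uterine glands, differed by -2.74 with ranges that overlapped widely. Cell cycle genes had a higher mean in 21 of 22, with a median of 0.73 that rests in part on 1 muscle-poor horn, and Mki67 ran 5.97 to 8.67 against 2.00 to 9.00. HG+ORG replicate 21 had a cell cycle score of 1.90, where the other injured horns ran from 4.99 to 7.45, and without it the median was 0.33. It was 1.04 without HG+ORG replicate 18, 0.16 within PBS and 1.71 within HG. Basement membrane genes had a median of 0.43, with Col4a1 (4.05) and Nid1 (3.41), found around vessels and muscle, at one end and Lama5 (-0.71) and Agrn (-0.96) at the other.

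The genes lower in every muscle-rich horn had a smaller median difference than the higher ones, as given above, and ran from -0.36 to -1.79, where the smallest difference among the higher genes was 0.32. Pcyt1b, an enzyme of phosphatidylcholine synthesis, ran 1.18, 3.72 and 4.25 in muscle-rich and 4.43, 4.90 and 7.31 in muscle-poor horns. Porcn, the acyltransferase that lipidates Wnt proteins, ran 3.69, 4.98 and 5.97 against 6.07, 6.71 and 7.51. The classes nearly touched for Porcn, with PBS replicate 10 and HG+ORG replicate 20 at the edge. The gap was narrower still for Epha1, Prss8, Xaf1, Sestd1, Zdhhc15, Akap9 and Map7, and wider for Pcyt1b, Tnik, Tmprss2 and Ehf. For Sestd1 the highest muscle-rich level was 7.175 and the lowest muscle-poor level 7.184. Epha1, an ephrin receptor of epithelia, differed by -1.41, Tnik, a kinase of Wnt signalling, by -1.38, and the epithelial membrane proteases Tmprss2 and Prss8 by -1.34 and -1.05. Without HG+ORG replicate 18 these 4 differences were -0.98, -1.05, -0.78 and -0.66. The remaining genes named by size were Xaf1 (-0.96), Sestd1 (-0.93), Zdhhc15 (-0.92), Akap9 (-0.89) and Map7 (-0.89), the last a microtubule protein of epithelia. Without HG+ORG replicate 18 these 5 were at -0.77, -0.77, -0.50, -0.55 and -0.45. HG+ORG replicate 18 was the lowest muscle-rich horn in 30 of the 43 lower genes and in 9 of the 52 higher ones.

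The higher and lower genes were chosen by the same muscle-rich values that are set against the SHAM horns here. Large shares therefore follow in part from that choice, and the shares of all genes are not a like reference. Of the 52 higher genes, 42 were higher in every muscle-rich horn than in every SHAM horn, against 5.16% of all genes. Of the 43 lower genes, 10 were lower in every muscle-rich horn than in every SHAM horn, against 1.09% of all genes. Muscle-rich horns stood above all SHAM horns in the smooth muscle filament score, Acta2 included, in 6 of 6 cases, and of the 11 muscle-poor horns 3 lay above and 5 below every SHAM horn.

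**Figure D4:**
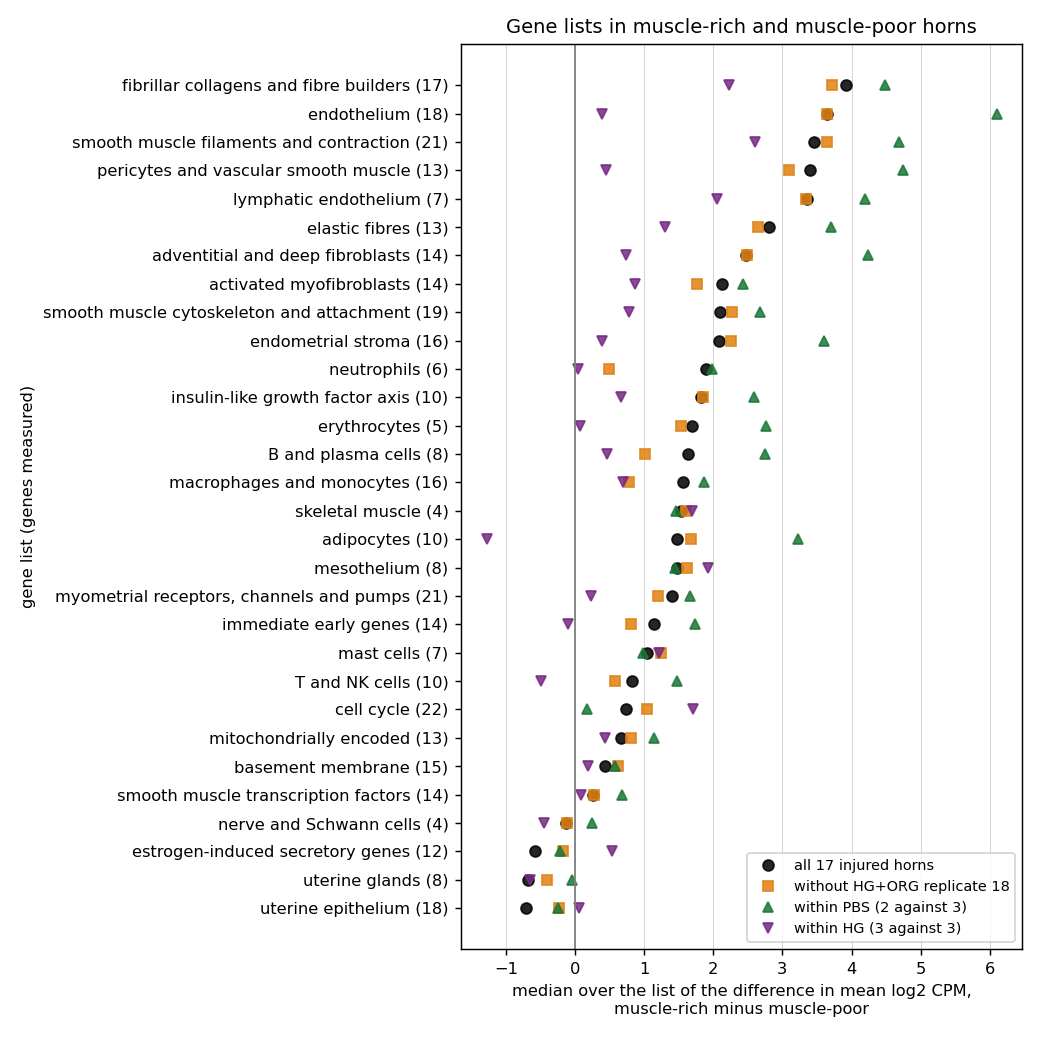
Median over each gene list of the difference in mean log2 CPM, muscle-rich minus muscle-poor, over all 17 injured horns, without HG+ORG replicate 18, within PBS and within HG. Smooth muscle filaments, which include the Acta2 that defined the classes and have a first value of 3.27 without it, stand at 3.46, 3.65, 4.68 and 2.61, whereas endothelium falls from 6.11 within PBS to 0.38 within HG.

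The last question was whether treatments differed among injured horns once the class was a term in the fit. The class rule did not use the treatment labels, and these contrasts were tested with edgeR's quasi-likelihood test over 17312 genes, with Benjamini-Hochberg adjustment. Acta2 was measured after treatment, however, so the class may itself depend on treatment. A term for the class can then remove treatment differences or add to them. In HG+ORG the only muscle-rich horn was replicate 18, which stood apart from the other horns. No gene passed an adjusted p of 0.05 in HG against PBS, HG+ORG against PBS or HG+ORG against HG (0% called in each), and the smallest adjusted p values were 0.815, 0.468 and 0.439. At an unadjusted p below 0.05 there were 1053, 1758 and 1792 of the 17312 genes with the class as a term and 416, 864 and 1428 without it. Where nothing differs, a share of about 0.05 of the genes tested falls below that p. These counts and those that follow are therefore not read as treatment differences. With the log2 CPM of Acta2 as the term in place of the class they were 398, 1093 and 1882. For HG against PBS the count was 544 without PBS replicate 9 and 525 without HG replicate 14. For HG+ORG against PBS it was 1165, 1163 and 743 without PBS replicate 7, PBS replicate 8 and HG+ORG replicate 18, and for HG+ORG against HG 1155 and 1179 without HG replicate 14 and HG+ORG replicate 18. The highest count with 1 horn left out was 1321 for HG against PBS, without HG replicate 15. It was 2364 for HG+ORG against PBS, without HG+ORG replicate 20, and 2212 for HG+ORG against HG, without HG replicate 12. DESeq2 called 1, 7 and 34 genes. Within muscle-rich horns alone HG against PBS gave 0 genes in edgeR (777 at an unadjusted p below 0.05), and within muscle-poor horns alone HG+ORG against PBS gave 0 (436). The labels do not say whether replicate horns came from separate mice, so these p values measure the spread between horns.

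The fitted values of muscle genes moved with the class term. The class was cut from Acta2, which is among these genes and which others of them track. Such a move therefore follows in part from the rule. Over the 40 genes of the filament and attachment lists the median log2 fold change of HG+ORG against HG was -2.23 without the term and -1.04 with it. For HG+ORG against PBS it went from -0.83 to 0.16, and for HG against PBS from 1.08 to 1.25. The smallest p values of HG+ORG against HG included Bnc2, a zinc finger factor of fibroblasts, at a log2 fold change of -2.04 ± 0.35 (SE, edgeR adjusted p = 0.439). Bnc2 had means of -0.12 ± 0.46 (SD, n = 6) and 2.04 ± 0.67 (n = 6), and its highest HG+ORG horn at 0.61 lay below its lowest HG horn at 1.01. DESeq2 called Bnc2, with an adjusted p of 0.00373, and also Oxtr (log2 fold change -4.61, adjusted p 0.00708) and the muscle intermediate filament gene Synm (-2.12, adjusted p 0.0484), which were picked out after their values were seen. Klhl13, which DESeq2 also called, was at -2.11 ± 0.47. Pilrb2 (2.56), Sirpa (1.80), an inhibitory receptor of myeloid cells, and Lpin2 (1.03) were the leading genes in the other direction, and none of these passed in edgeR. Without HG+ORG replicate 18 Sirpa was at 0.87 and Lpin2 at 0.78. Pilrb2 had low means of 0.50 ± 1.76 (SD, n = 6) in HG+ORG, with a highest horn at 3.81, and -0.73 ± 0.35 (n = 6) in HG. It was kept in 13 of the 17 fits with 1 horn left out.

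In HG+ORG against PBS the leading genes were Trbc2 (3.33 ± 0.69), a T cell receptor constant chain, the stress response genes Trib3 (2.66 ± 0.56) and Atf4 (0.91 ± 0.21), and, lower, Jmjd8 (-0.67 ± 0.15), Mfsd9 (-1.68 ± 0.40) and Tmem106b (-0.79 ± 0.19), all at an edgeR adjusted p of 0.468. Without HG+ORG replicate 18 the edgeR values of Trbc2, Trib3 and Mfsd9 were 2.54, 2.22 and -1.45, the closest to no change with any single horn left out. With all horns DESeq2 called Trbc2, Trib3, Jmjd8 and Mfsd9 of the leading genes. In HG against PBS they were Msrb3 (1.60 ± 0.39), a methionine sulfoxide reductase, Agtr2 (3.11 ± 0.75), the angiotensin II type 2 receptor, and Cfl2 (0.49 ± 0.12), the muscle form of cofilin, and, lower, Tmub1 (-0.54 ± 0.14), Dync1h1 (-0.43 ± 0.12) and Asb3 (-0.52 ± 0.14), all at an edgeR adjusted p of 0.815. DESeq2 called Dync1h1, the dynein heavy chain, with an adjusted p of 0.00391.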

How the data were processed

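RNA sequencing counts of 23 mouse uterine horns (6 SHAM, 5 PBS, 6 HG, 6 HG+ORG, grouped by their titles) were used. The authors deposited raw read counts per gene, whole numbers with a different total in each horn. Per the labels' protocols, endometrium was parted from myometrium by hand, and poly(A) RNA went into stranded libraries read single-end. Reads were aligned to GRCm39, and the programs listed are HISAT2 2.2.1, featureCounts 2.0.3, Trimmomatic 0.39 and DESeq2 1.42.1 among others, per the submitters' processing notes. No source used here gives the strand setting or the annotation release, so overlapping or near-identical genes (Acta2, Actg2, Acta1) may share reads. No GRCm39 annotation was used, and counted genes carry no coordinates.

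Of 18682 genes, 17312 passed filterByExpr by treatment over the 17 injured horns in edgeR 4.0.16 (R 4.3.3). Levels are log2 CPM with TMM factors and a prior count of 2. Muscle-rich and muscle-poor horns were compared by differences of means and by ranges, without a test. Treatments were tested by edgeR's quasi-likelihood fit with class as a term; standard errors are the absolute log2 fold change over the square root of F. Genes were named by a rule: the 12 largest differences each way among genes without overlap with and without HG+ORG replicate 18, an established symbol and at least 1 CPM on average; the 8 highest Spearman correlations with Acta2; the 3 smallest p values each way per contrast, under the same limits on level and symbol; and members of 30 gene lists (373 of 422 genes measured). A gene that the rule names is not reported here. The members, lists and rule were chosen with earlier results of these data known. Alternatives were other scalings (DESeq2 1.42.0 size factors, plain CPM), no filter, class thresholds at a log2 CPM of 6 and 8, DESeq2, single treatments and leaving out each horn.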

Additional observations from a re-analysis of the deposited data

Results flagged for a closer look

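Of 236 groups of 5 or 6 horns examined for the named genes and list scores, 21 held a horn far from the rest of its group by Dixon's criterion, where chance gives about 5%. HG+ORG replicate 18, the only muscle-rich HG+ORG horn, was the horn in 13 of the 21. Of these 13, 12 are genes chosen because their ranges did not overlap between the classes, so that its place at the edge of its own group follows from the choice of genes and the chance rate does not apply to them. In log2 CPM it stood at 4.10 for Meox1, where the other HG+ORG horns ran from -2.10 to -0.74. It was lowest in its group for Pcyt1b (1.18), Porcn (3.69), Epha1 (2.32), Tnik (1.86), Tmprss2 (4.16), Prss8 (4.47), Xaf1 (4.19), Ehf (5.62), Zdhhc15 (2.13), Akap9 (4.84) and Map7 (3.39). Its epithelial list score was 5.67, where the other HG+ORG horns ran from 8.41 to 9.60.

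Among SHAM horns, replicate 4 was low for Porcn (4.83) and Tmprss2 (7.31). SHAM replicate 3 was high for Epha1 (7.84) and Sestd1 (8.66), and its cell cycle score was 1.42, where the other SHAM horns ran from 6.35 to 7.18. The deep fibroblast score of HG replicate 15 was 4.51, below the other HG horns at 5.96 to 6.70. The mast cell score of HG+ORG replicate 21 was 3.29, above the others at 1.63 to 2.21. The fat cell score of PBS replicate 7 was 5.75, above the other PBS horns at -0.99 to 0.85.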

How the results depend on the processing

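No paired analysis was possible because the groups share no replicate numbers. The count of genes higher without overlap stayed within 1.5 times of 53 under plain CPM, DESeq2 size factors, no filter and the class threshold at a log2 CPM of 6. The count of lower genes fell from 43 to 14 under plain CPM and to 12 at that lower threshold. At a log2 CPM of 8 the counts were 168 higher and 118 lower, of 17312 genes. Of the same 17312 genes, the counts within PBS horns alone were 2772 and 2552. Within HG horns alone, an alternative chosen after seeing the data, they were 1976 and 2025. With so few horns many genes do not overlap by chance alone, so these counts are not set against 53 and 43. Leaving out 1 horn at a time gave 54 to 357 higher and 40 to 254 lower genes. It gave 18 to 21 lists with a median of at least 1, against 21 with all horns, 14 by edgeR's fitted fold and 8 within HG. Of the 8 genes most like Acta2, 5 remained without HG+ORG replicate 18, 5 without HG replicate 14 and 6 with plain CPM. Fat cell genes reversed to -1.28 within HG and to -1.93 by edgeR's fitted fold, and immediate early genes to -0.10 within HG. Within HG the signs of T and NK cell genes (-0.50), estrogen-induced secretory genes (0.54) and epithelial genes (0.05) also turned, and within PBS that of nerve and Schwann cell genes, from -0.13 to 0.24. Mast cell genes were at -0.0018 without HG replicate 16 and -0.12 without HG replicate 17. The cause of these moves was not tested. Treatment contrasts gave 0 genes in edgeR whichever horn was left out (0 to 0), and 1, 7 and 34 in DESeq2. Genes near the floor of -2.66 rest on few counts, and their differences depend on the prior count.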
